A study of Danio rerio with 40 samples.

Results

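The brains compared here come from zebrafish that carry the naglu allele A603fs on both chromosomes (naglu A603fs/A603fs) and had been injected into the body cavity with iron or with its vehicle. The libraries were chosen by their labelled genotype and treatment. This put 20 of the 40 libraries of the series in the homozygous genotype, 10 given 10 µg ferric citrate in 0.85% saline (homozygous iron) and 10 given 0.85% saline alone (homozygous saline). Brains were taken 7 days after the injection, from fish aged 6 months that had been kept apart from other fish since then. The other 20 libraries are heterozygous siblings (naglu A603fs/+), 10 given iron (heterozygous iron) and 10 given saline (heterozygous saline). They are fitted together with the homozygous libraries and are set beside them where the iron difference, the genotype or the fish number is compared. The mutation is in every cell of the homozygous fish, each library is 1 fish, and all groups carry at least 1 copy of the allele, so a fish with no mutant copy was not part of the comparison. PolyA RNA of the whole brain was measured as counts of reads per gene.

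Homozygous naglu fish model mucopolysaccharidosis type IIIB (Sanfilippo syndrome type B). The gene encodes alpha-N-acetylglucosaminidase, a lysosomal enzyme that breaks down heparan sulfate, and without it heparan sulfate builds up in lysosomes. Iron enters most cells bound to transferrin, which the transferrin receptor carries into endosomes. The iron is released there, reduced, and moved to the cytosol by the transporter that slc11a2 encodes, stored inside ferritin and exported by ferroportin, the product of slc40a1. Autophagy delivers ferritin to the lysosome, where its iron is set free. In vertebrate cells with ample iron, the iron regulatory proteins lose their hold on messenger RNAs, transferrin receptor transcripts become less stable and ferritin transcripts are translated more. Much of the control of ferritin is therefore not visible in RNA levels. Iron in the circulation is set by the liver hormone hepcidin (hamp), whose transcription follows bone morphogenetic protein (BMP) signals. The comparison asks which brain transcripts differ between homozygous fish given iron and homozygous fish given saline.

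The homozygous groups overlapped in depth and in mitochondrial share, but they were not balanced for sex, tank or fish number. Totals ran from 13100000 to 37600000 counts in homozygous iron libraries and from 13100000 to 27700000 in homozygous saline libraries. Females were 5 of 10 homozygous iron and 7 of 10 homozygous saline fish, and no homozygous iron fish but 4 homozygous saline fish came from home tank 4. Without that tank the iron comparison in homozygous fish also called 0 genes, with 526 at an unadjusted p under 0.05 by edgeR. No homozygous iron male shared a home tank with a homozygous saline male. The fish number, the number used as each fish's title in the labels, was above 40 in 6 of 10 homozygous iron and 4 of 10 homozygous saline fish. Its meaning is not stated in the labels. All 3 were terms of the model. Mitochondrially encoded transcripts took 12.1% to 16.1% of counts in homozygous iron libraries and 10.5% to 19.5% in homozygous saline libraries. A genotype score, built for each library from the 50 genes that separate the genotypes best in the other 39, was 0.71 to 1.22 in homozygous iron and 0.789 to 1.29 in homozygous saline libraries. All 20 libraries thus lay on the homozygous side of the score, where 1 is the average homozygous fish, and so did 2 libraries labelled heterozygous, heterozygous iron 5 at 1.13 and heterozygous saline 5 at 1.08. Brain markers were high in both groups. The myelin gene mbpa was at 12.69 to 13.90 log2 CPM (log2 of CPM, the count scaled to the library total) in homozygous iron and 12.72 to 14.15 in homozygous saline libraries, and the astroglial filament gene gfap was at 7.04 to 8.23 in homozygous iron and 7.29 to 8.26 in homozygous saline libraries.

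The mutated gene itself was counted over similar ranges in both groups, with a lower median after iron. The lowest, median and highest log2 CPM of naglu were 1.56, 1.85 and 2.61 in homozygous iron libraries and 1.49, 2.19 and 2.63 in homozygous saline libraries. These levels are not adjusted for fish number, with which naglu was associated (log2 change of -0.12 per 10 numbers, edgeR adjusted p = 1e-06). More homozygous iron than homozygous saline fish were numbered above 40. The groups overlapped almost fully, and the fitted log2 fold change of iron over saline was 0.04 (SE 0.11, 95% interval -0.20 to 0.27, edgeR adjusted p = 1). Counts per gene do not tell the mutant transcript from the normal one, so this level does not check the genotype.

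No transcript passed the test between homozygous iron and homozygous saline brains. Of 19668 genes tested with edgeR's quasi-likelihood test, 0 (0%) passed an adjusted p of 0.05, the smallest adjusted p was 1, and 321 genes (1.63%) had an unadjusted p under 0.05 where 983 would be 5% of the genes. DESeq2 also called 0, with 339 at an unadjusted p under 0.05, and limma voom called 0, with 276. In no gene did the range of the 10 homozygous iron libraries lie wholly above or below that of the 10 homozygous saline libraries (0 of 19668). The fitted differences were small and lay on both sides of 0: 10063 genes (51.2%) were higher after iron, the median log2 fold change was 0.0026, and its median size was 0.0589. On the principal component that carried most of the variance among the 20 homozygous libraries (21.3%), homozygous iron fish ran from -41.6 to 33.8 and homozygous saline fish from -28.9 to 47.8.

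**Figure D1:**
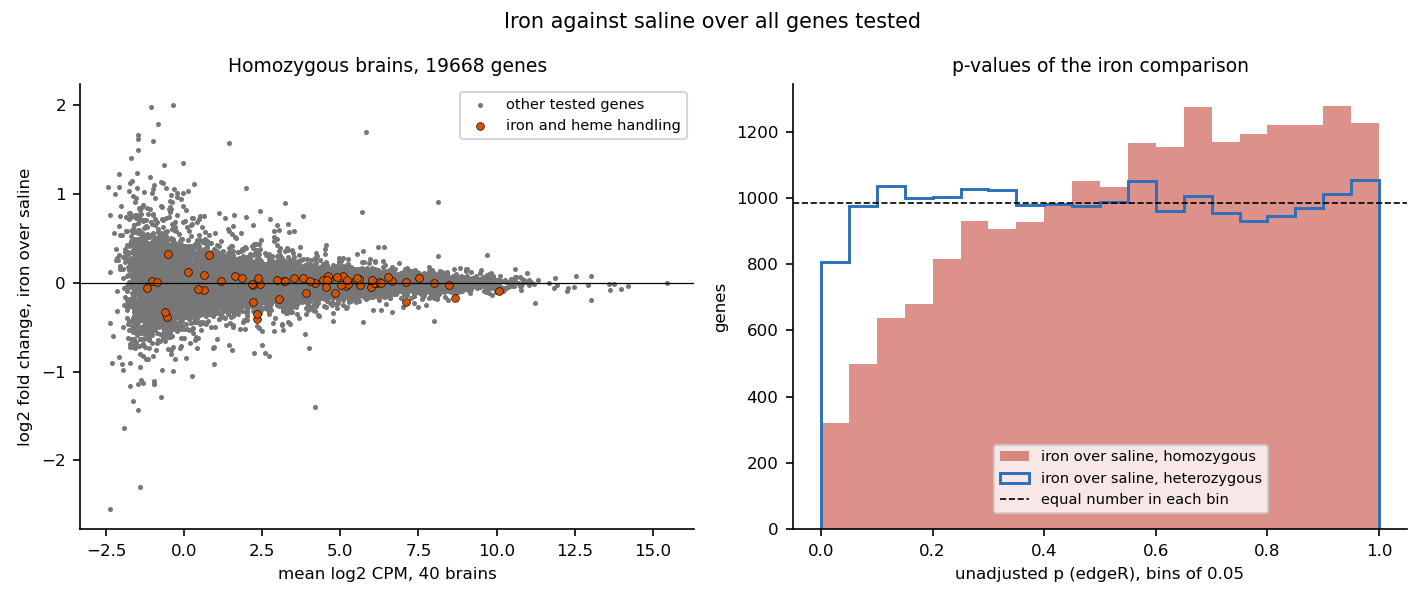
Left, the log2 fold change of homozygous iron over homozygous saline brains (y axis) against the mean log2 CPM of each of 19668 genes over 40 brains (x axis), with 63 iron and heme handling genes in orange, none of which stands away from the cloud. Right, the number of genes (y axis) in each bin of unadjusted edgeR p (x axis) for iron over saline in homozygous brains (filled) and in heterozygous brains (outline), with 321 and 808 genes in the lowest bin and a dashed line at the height of equal bins.

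The size of difference that these fish could have hidden was bounded by the intervals. For 18558 genes (94.4%) the 95% interval of the iron effect lay within 2-fold in either direction and for 15876 (80.7%) within 1.5-fold. The bounds depended on expression. For the 5500 genes whose mean log2 CPM was 5 or more, 98.8% of intervals were within 1.5-fold, against 91.9% of 10015 genes between 1 and 5 and 29.8% of 4153 genes under 1. A change of less than 1.5-fold, or a larger change in a weakly expressed gene, was not detectable at this depth and number of fish in many genes.

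The same model did call genes for other factors in the same libraries. The fish number was associated with 4288 genes (21.8%), 2121 higher and 2167 lower at higher numbers. Homozygous saline against heterozygous saline brains differed in 351 genes (1.78%), 161 higher and 190 lower in homozygous fish. Females were 7 of 10 homozygous saline but 2 of 10 heterozygous saline fish, with sex as a term of the model. The heterozygous saline group included heterozygous saline 5, whose genotype score was 1.08.

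The iron and heme handling genes were looked at whatever their p. Of 63 such genes that passed the filter on low counts, 0 were called and 0 had an unadjusted p under 0.05, where 1.63% of all genes did. Homozygous iron brains were higher for 36 of them and lower for 27, with a median log2 fold change of 0.0154 beside 0.0026 over all genes. The 95% interval lay within 2-fold for 60 and within 1.5-fold for 51, and in 28 it was narrower than 0.2 to either side on the log2 scale. In none of the 63 were the homozygous groups apart. The 3 intervals that reached beyond 2-fold belonged to tfr1a, steap3 and blvrb.

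**Figure D2:**
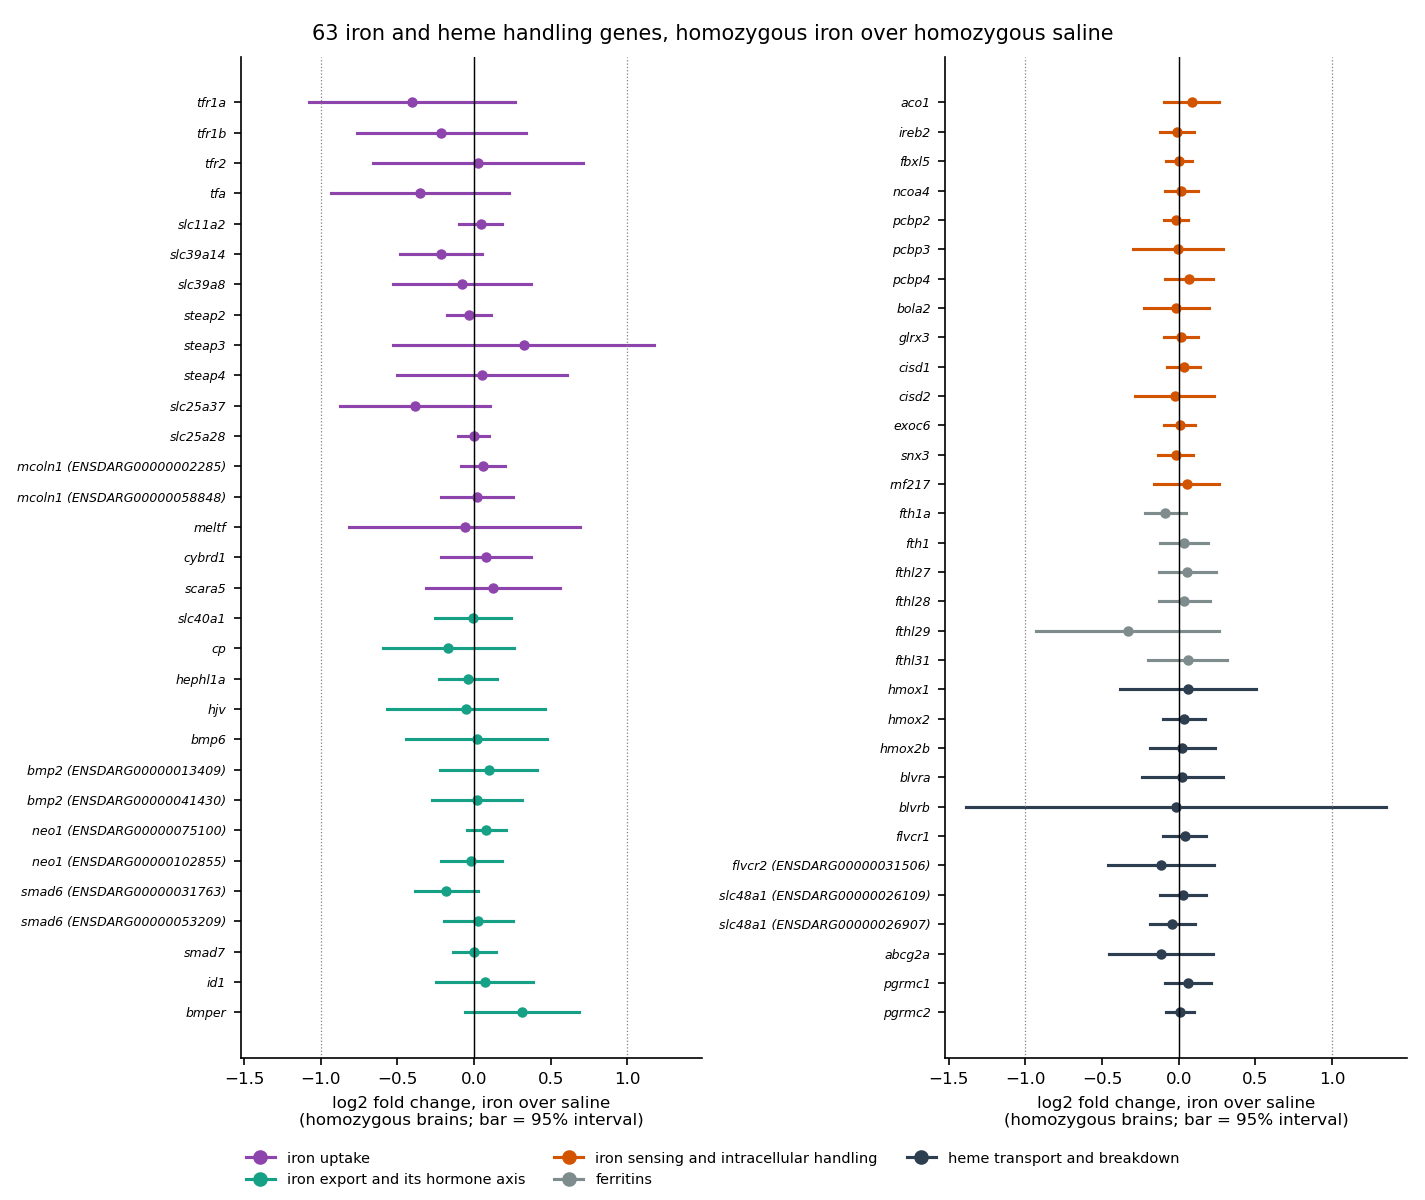
Log2 fold change of homozygous iron over homozygous saline brains (x axis, points) with its 95% interval (bars) for 63 iron and heme handling genes (y axis), coloured by role, with dotted lines at 2-fold. All 63 intervals include 0, and those of tfr1a, steap3 and blvrb cross a dotted line.

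Genes of iron uptake did not separate the groups. The zebrafish has 2 genes for transferrin receptor 1, tfr1a and tfr1b. Of these, tfr1a is also in the list of erythrocyte genes, which mark blood left in the brain. The part of blood in its level was not tested. For tfr1b the lowest, median and highest log2 CPM were 6.24, 7.19 and 8.03 in homozygous iron fish and 6.79, 7.38 and 7.91 in homozygous saline fish. The homozygous iron fish spanned the saline range on both ends, and the log2 fold change was -0.21 (SE 0.27, 95% interval -0.76 to 0.34). For tfr1a the levels were 1.32, 2.32 and 3.24 in homozygous iron and 1.55, 2.30 and 3.62 in homozygous saline fish, with a log2 fold change of -0.41 (SE 0.33, interval -1.08 to 0.27). The medians were nearly equal and the highest values belonged to saline fish. Transferrin itself, tfa, had 1.43, 1.87 and 2.92 in homozygous iron and 0.97, 2.51 and 3.23 in homozygous saline fish. Its median was lower after iron but the saline fish held both the lowest and the highest value, and the log2 fold change was -0.35 (SE 0.28, interval -0.93 to 0.22). In females and males the estimates were -0.09 and -0.59 for tfr1b, -0.42 and -0.75 for tfr1a, and -0.23 and -0.65 for tfa, and none of these sex differences passed. The log2 fold change of tfr1b was 0.24 in fish numbered up to 40 and 0.09 in fish numbered above 40, both of the opposite sign to the estimate over all fish. That of tfr1a was -0.2115 without homozygous saline replicate 1, and that of tfa was -1.2476 in fish numbered up to 40. The intervals of these genes include a lower level by 1.5-fold or more.

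Some of the genes that move iron out of the endosome, into the cell and into mitochondria were measured more closely, and others were not. The divalent metal transporter gene slc11a2 had 4.51, 4.69 and 4.89 log2 CPM in homozygous iron and 4.30, 4.69 and 4.89 in homozygous saline fish, a log2 fold change of 0.04 (SE 0.07, interval -0.10 to 0.18). The medians were the same to 2 decimals. The mitochondrial iron importer slc25a28 had 5.86, 6.11 and 6.35 in homozygous iron and 5.89, 6.21 and 6.38 in homozygous saline fish, with a log2 fold change of -0.00 (SE 0.05, interval -0.10 to 0.10). Its relative slc25a37, a weakly counted gene, had a log2 fold change of -0.39 (SE 0.24, interval -0.87 to 0.10). The metalloreductase gene steap2 had a log2 fold change of -0.03 (interval -0.18 to 0.11). The intervals of steap4 (-0.51 to 0.61) and slc39a8 (-0.53 to 0.37) were wider. The endolysosomal channel gene mcoln1, which in mammals lets iron out of lysosomes, is present as 2 genes, which had log2 fold changes of 0.06 (ENSDARG00000002285, interval -0.09 to 0.20) and 0.02 (ENSDARG00000058848, interval -0.22 to 0.25). The zinc and iron importer slc39a14 had 1.79, 1.92 and 2.47 in homozygous iron and 1.81, 2.23 and 2.82 in homozygous saline fish, and with a log2 fold change of -0.22 (SE 0.13, unadjusted p = 0.112) it had the smallest p of the uptake list. Of the 17 uptake genes 8 were higher and 9 lower after iron, with a median of -0.0034.

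**Figure D3:**
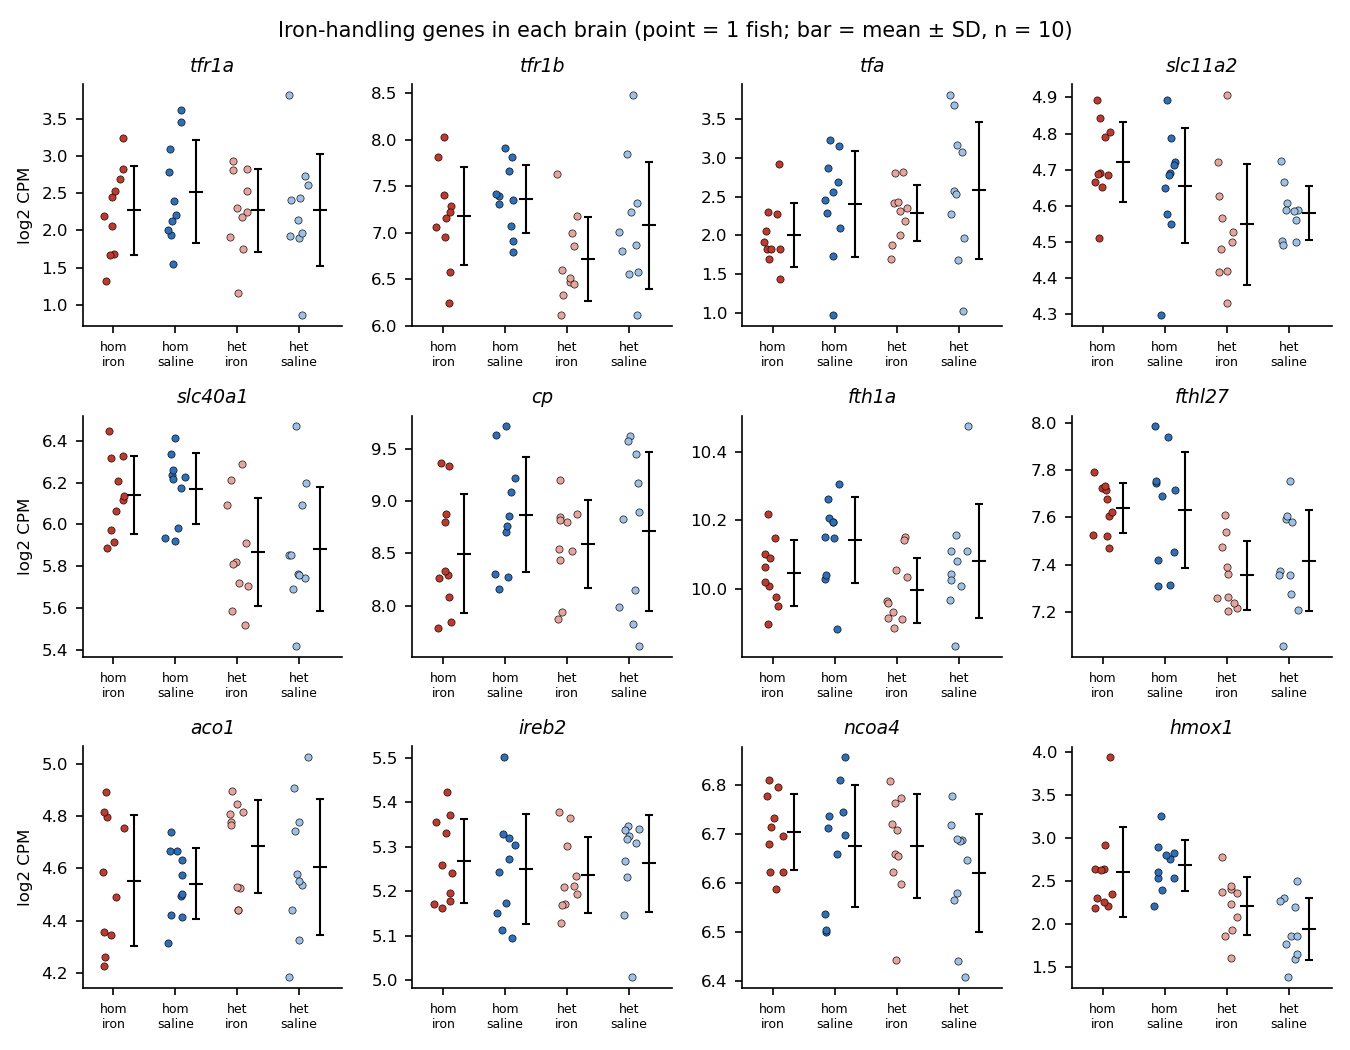
Log2 CPM (y axis) of 12 iron-handling genes in each of 40 brains (points, 10 fish in each of 4 groups on the x axis) with the mean and SD of each group (bars). Homozygous iron and homozygous saline fish overlap in every panel, and 1 homozygous iron fish is set apart for hmox1 at 3.94.

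Export genes and genes of the hormone axis did not separate the groups either. Of 14 tested, 8 were higher after iron, with a median log2 fold change of 0.0087. Ferroportin, slc40a1, had 5.89, 6.13 and 6.45 log2 CPM in homozygous iron and 5.92, 6.22 and 6.41 in homozygous saline fish, and the log2 fold change was -0.01 (SE 0.12, interval -0.25 to 0.24). The ferroxidase ceruloplasmin, cp, which loads exported iron onto transferrin, had 7.79, 8.32 and 9.36 in homozygous iron and 8.16, 8.81 and 9.71 in homozygous saline fish. The median was lower after iron, the groups overlapped over most of their range, and with sex, tank and fish number in the model the log2 fold change was -0.17 (SE 0.21, interval -0.60 to 0.26). Fish number was associated with cp (log2 change of -0.15 per 10 numbers, edgeR adjusted p = 0.000362). The related ferroxidase hephl1a had a log2 fold change of -0.04 (interval -0.23 to 0.15). Hepcidin, hamp, did not pass the filter, with 51 counts over the 10 homozygous iron libraries and 38 over the 10 homozygous saline libraries. The ferroxidase gene heph had 23 counts in homozygous iron and 47 in homozygous saline libraries, also too few. Of the BMP genes upstream of hepcidin, bmp6 had a log2 fold change of 0.02 (interval -0.44 to 0.47). The BMP target genes id1 and smad7 had 0.07 (interval -0.25 to 0.38) and 0.00 (interval -0.14 to 0.14). In fish numbered up to 40 bmp6 was at -0.6254 and smad7 at 0.3429, both outside these intervals. The inhibitory smad6 (ENSDARG00000031763), another target of BMP signals, had 2.89, 2.98 and 3.15 in homozygous iron and 2.91, 3.16 and 3.60 in homozygous saline fish. With a log2 fold change of -0.18 (SE 0.10, unadjusted p = 0.0847) it had the smallest p of the 63 genes, and its paralog smad6 (ENSDARG00000053209) was at 0.03.

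Iron sensing genes were bounded tightly in the fit of all fish. The iron regulatory protein genes aco1 and ireb2 had log2 fold changes of 0.08 (SE 0.09, interval -0.10 to 0.26) and -0.01 (SE 0.06, interval -0.13 to 0.10). The ubiquitin ligase subunit gene fbxl5, which in mammals removes iron regulatory protein 2 when iron is ample, had 5.93, 6.03 and 6.21 log2 CPM in homozygous iron and 5.96, 6.04 and 6.16 in homozygous saline fish, a log2 fold change of 0.00 (SE 0.04, interval -0.08 to 0.09). The cargo receptor ncoa4, which brings ferritin to the lysosome, had 6.59, 6.71 and 6.81 in homozygous iron and 6.50, 6.70 and 6.86 in homozygous saline fish, with a log2 fold change of 0.02 (SE 0.05, interval -0.09 to 0.13). All 14 genes of the sensing list had intervals within 1.5-fold in this fit. For pcbp3 the interval ran from -0.30 to 0.29 on the log2 scale. Its log2 fold change was -0.3144 in fish numbered up to 40 and 0.5172 in fish numbered above 40, both outside that interval. The interval of ncoa4 ran from 0.939-fold to 1.09-fold and that of fbxl5 from 0.945-fold to 1.06-fold. In males alone, though, the log2 fold change of ncoa4 was 0.2066, above its interval. That of glrx3, another gene of the list, was 0.1973 in fish numbered up to 40, above its upper bound of 0.1269. For fbxl5 the alternatives ran from -0.0261 to 0.0441, within its interval.

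Ferritin transcripts overlapped as well. The heavy chain gene fth1a had 9.90, 10.04 and 10.22 log2 CPM in homozygous iron and 9.88, 10.17 and 10.31 in homozygous saline fish. The median was slightly lower after iron, the ranges overlapped almost fully, and the log2 fold change was -0.09 (SE 0.07, interval -0.22 to 0.05). For fth1 the levels were 5.06, 5.27 and 5.50 in homozygous iron and 4.84, 5.17 and 5.43 in homozygous saline fish, with a log2 fold change of 0.03 (SE 0.08, interval -0.12 to 0.19). The ferritin-like genes fthl27, fthl28 and fthl31 had log2 fold changes of 0.06, 0.04 and 0.06, with intervals between -0.20 and 0.32, and fthl29, a weakly counted gene, one of -0.33 (SE 0.29, interval -0.93 to 0.26). The ferritin genes of the zebrafish are close copies of each other, so reads may be shared between them and the single values are uncertain. Counts in fthl30 were 13 in all homozygous iron and 8 in all homozygous saline libraries, too few to test.

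Heme handling was measured over synthesis, transport and breakdown. The heme oxygenase gene hmox1, which is induced by heme and oxidative stress, had 2.18, 2.49 and 3.94 log2 CPM in homozygous iron and 2.201, 2.68 and 3.25 in homozygous saline fish. A single homozygous iron fish (fish number 79) was high while the other 9 lay between 2.18 and 2.91, and the log2 fold change was 0.06 (SE 0.22, interval -0.38 to 0.50). Without that fish (homozygous iron replicate 9) it was -0.15. The metalloreductase gene steap3, of which the same fish had the highest level, was at 0.32 (interval -0.53 to 1.17) with that fish and -0.11 without it. The constitutive hmox2 had a log2 fold change of 0.03 (interval -0.10 to 0.17) and the heme exporter flvcr1 one of 0.04 (interval -0.10 to 0.18). The biliverdin reductase gene blvrb split each group in 2. In homozygous iron fish 6 libraries lay at 0.78 to 1.62 and 4 at 3.37 to 3.96, and in homozygous saline fish 5 lay at 0.24 to 1.08 and 5 at 3.51 to 3.75, with none between. Both groups held low and high fish, and the interval of blvrb was the widest of the 63 (-1.39 to 1.35). Of 20 heme synthesis genes 0 were called, with 9 higher, a median of -0.0122 and 1 at an unadjusted p under 0.05. Erythrocyte genes, which mark blood left in the brain, had a mean log2 CPM of 2.73 to 3.74 in homozygous iron and 3.05 to 3.88 in homozygous saline libraries. The erythroid synthase gene alas2 had a log2 fold change of -0.13 (interval -0.81 to 0.55) and the haemoglobin gene hbaa1 one of 0.07 (interval -0.46 to 0.61).

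Processes that use iron or respond to it were tested next. Of 27 genes of iron-sulfur cluster assembly 0 were called and 14 were higher after iron, with a median of 0.0031 and all 27 intervals within 1.5-fold. The frataxin gene fxn had a log2 fold change of -0.05 (interval -0.18 to 0.08). Of 45 genes of ferroptosis, a form of cell death driven by iron and lipid peroxides, and of redox defence, 0 were called and 23 were higher, with a median of 0.0024. The glutathione peroxidase gene gpx4a had 6.88, 7.12 and 7.43 log2 CPM in homozygous iron and 6.87, 7.20 and 7.54 in homozygous saline fish, a log2 fold change of 0.01 (SE 0.09, interval -0.17 to 0.18). The cystine transporter gene slc7a11 was at 0.06 (interval -0.39 to 0.52) and the glutathione synthesis gene gclc at 0.00 (interval -0.08 to 0.09). Of 29 hypoxia response genes, whose activators are marked for breakdown by iron-dependent enzymes, 0 were called and 17 were higher, with a median of 0.0247.

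Genes whose levels differ between the genotypes were set beside the iron comparison, since the question is about mutant brains. They were picked from earlier results of these data. The homozygous saline libraries serve in both comparisons, so the values are only placed side by side. The melanosome matrix gene pmelb averaged 2.75 ± 0.71 log2 CPM in homozygous iron, 3.04 ± 0.51 in homozygous saline, 0.36 ± 1.03 in heterozygous iron and 0.28 ± 0.79 in heterozygous saline fish (SD, n = 10 each). Its iron effect in homozygous fish was -0.28 on the log2 scale (SE 0.40, interval -1.10 to 0.54). The zinc transporter gene slc30a8 averaged 1.88 ± 0.43 in homozygous iron, 2.01 ± 0.24 in homozygous saline, 0.29 ± 0.71 in heterozygous iron and 0.30 ± 0.74 in heterozygous saline fish, with an iron effect of -0.03 (interval -0.62 to 0.55). On average both homozygous groups stood above both heterozygous groups in these genes. The lysosomal hexosaminidase subunit hexb averaged 5.45 ± 0.15 in homozygous iron, 5.49 ± 0.09 in homozygous saline, 4.85 ± 0.32 in heterozygous iron and 4.80 ± 0.24 in heterozygous saline fish, with an iron effect of -0.01 (SE 0.11, interval -0.25 to 0.22). The sulfatase gene gnsb, whose product also acts in heparan sulfate breakdown, had an iron effect of -0.07 (interval -0.46 to 0.32), and the lysosomal protease gene ctsd one of 0.01 (SE 0.07, interval -0.14 to 0.16). For ctsd, hexb and lamp1 the homozygous over heterozygous differences after saline were 0.33, 0.61 and 0.27 on the log2 scale. The iron effect on lamp1, a lysosomal membrane protein gene, was -0.01 (interval -0.13 to 0.11).

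**Figure D4:**
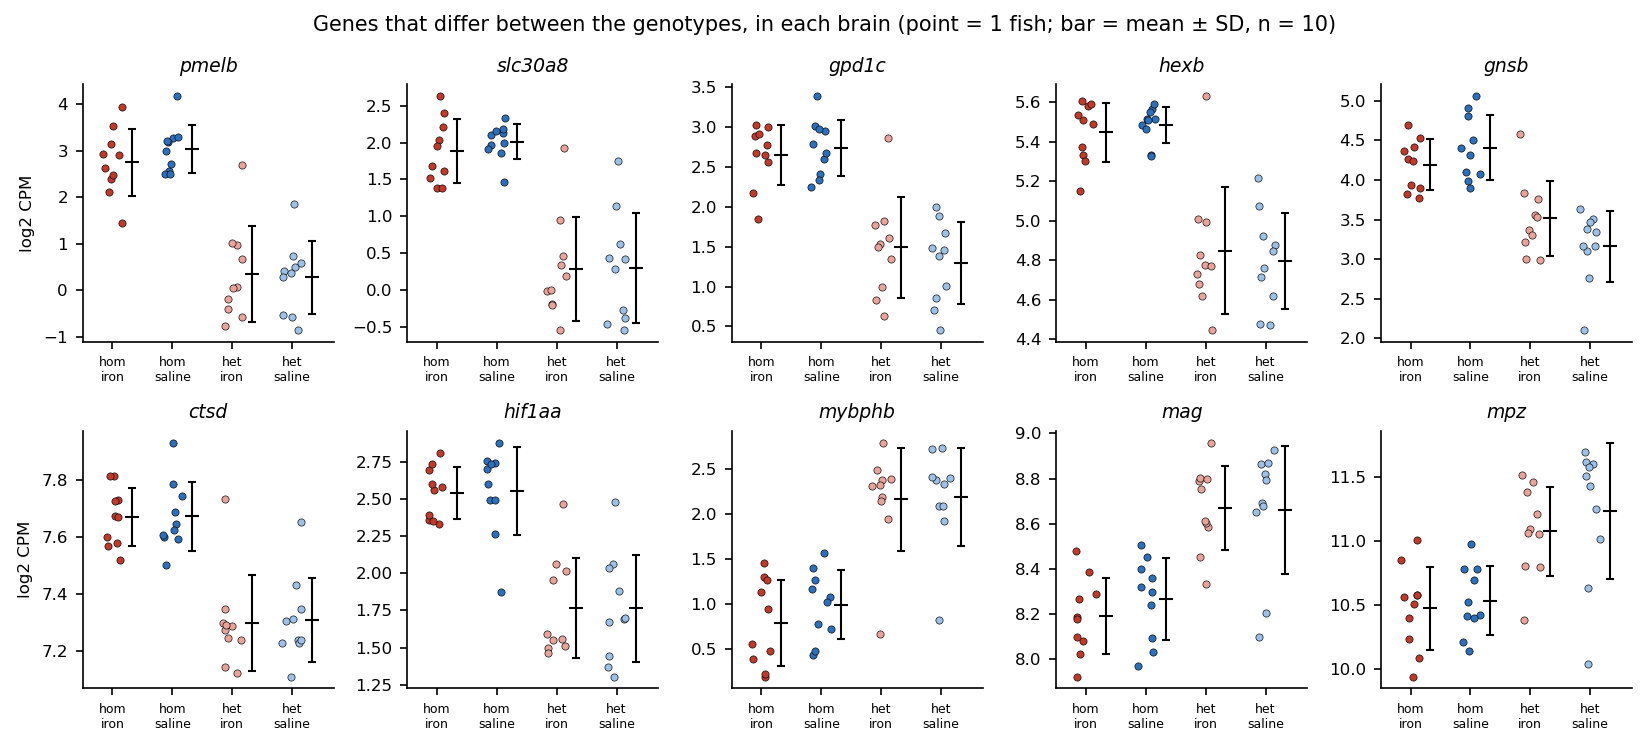
Log2 CPM (y axis) in each of 40 brains (points, 10 fish in each of 4 groups on the x axis) of 10 genes picked because they differ between the genotypes, with the mean and SD of each group (bars). Homozygous iron and homozygous saline fish overlap in each panel, and 1 fish in each heterozygous group lies with the homozygous fish in several panels.

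The genes that are lower in homozygous than in heterozygous brains also overlapped between the homozygous groups. The myosin-binding protein gene mybphb averaged 0.79 ± 0.48 log2 CPM in homozygous iron, 0.99 ± 0.38 in homozygous saline, 2.17 ± 0.57 in heterozygous iron and 2.19 ± 0.55 in heterozygous saline fish, with an iron effect of -0.15 (SE 0.24, interval -0.63 to 0.33). The myelin-associated glycoprotein gene mag averaged 8.19 ± 0.17 in homozygous iron, 8.27 ± 0.18 in homozygous saline, 8.67 ± 0.19 in heterozygous iron and 8.66 ± 0.28 in heterozygous saline fish, with an iron effect of -0.02 (SE 0.10, interval -0.22 to 0.17). The myelin protein genes mpz and plp1b had iron effects of -0.01 (interval -0.34 to 0.32) and -0.04 (interval -0.38 to 0.31). The oligodendrocyte factor sox10 averaged 4.79 ± 0.23 in homozygous iron and 4.69 ± 0.31 in homozygous saline fish, with an iron effect of 0.09 (interval -0.16 to 0.34). The hypoxia-inducible factor subunit gene hif1aa, which is higher in homozygous than in heterozygous brains, averaged 2.54 ± 0.17 in homozygous iron and 2.55 ± 0.30 in homozygous saline fish, with an iron effect of -0.08 (interval -0.38 to 0.22).

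Gene lists for cell types and processes contained no called gene. In all 43 lists, 0 members passed, against 0% of all genes. Of 103 lysosome genes 47 were higher after iron, with a median log2 fold change of -0.0069, 96 had an interval within 1.5-fold and 0 had an unadjusted p under 0.05. Of 44 autophagy genes 35 were higher, with a median of 0.0335, and of 31 oligodendrocyte and myelin genes 14, with a median of -0.0091. Of 13 heparan sulfate breakdown genes 7 were higher. The 7 medians farthest from 0 were those of photoreceptor, lens and pineal genes (15 of 23 higher, 0.2118), the interferon response (27 of 32 higher, 0.1569), proliferation (3 of 37 higher, -0.1194), neutrophils (1 of 4 higher, -0.1063), immediate early genes (7 of 42 higher, -0.0897), meninges and extracellular matrix (8 of 38 higher, -0.0784) and cytosolic ribosomal proteins (1 of 80 higher, -0.0762). Over 40 alternative fits, the medians of proliferation, neutrophil, immediate early and ribosomal protein genes kept their sign in all 40. Those of interferon and photoreceptor genes did so in 33 and 32. The meninges and extracellular matrix median did so in 39, and was 0.0049 without homozygous saline replicate 10. The alternatives share most of their fish. Genes of a list are measured in the same fish, so the counts of higher members are no test, and over all genes 51.2% were higher. In a bulk sample, fewer cells of a type and less RNA per cell cannot be told apart.

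**Figure D5:**
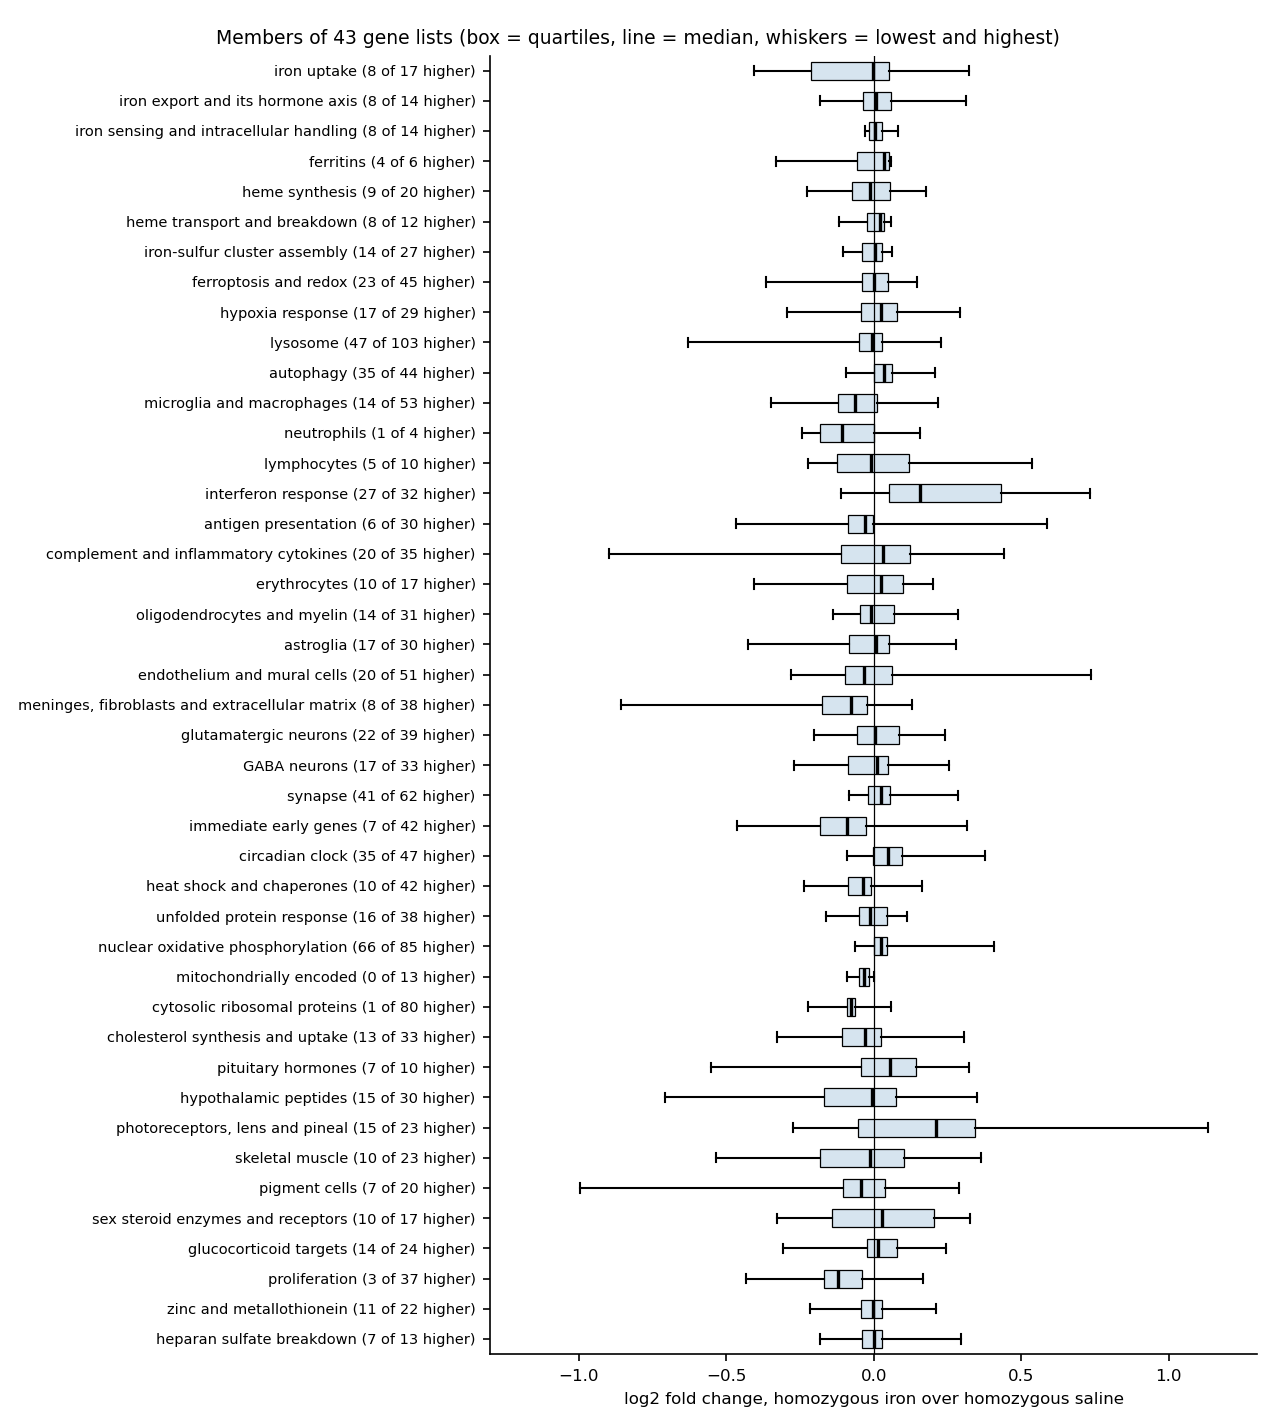
Log2 fold change of homozygous iron over homozygous saline brains (x axis) for the tested members of 43 gene lists (y axis, with the number of members higher after iron); the line is the median, the box the quartiles and the whiskers the lowest and highest member. Most medians lie near 0, and those farthest from it are photoreceptor (0.2118), interferon (0.1569), proliferation (-0.1194) and neutrophil genes (-0.1063).

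Immune genes varied widely among fish of the same group. The mean log2 CPM of the 32 interferon response genes was 0.83 to 4.82 with a median of 1.70 in homozygous iron fish and 0.67 to 3.96 with a median of 2.59 in homozygous saline fish. The raw median was thus lower after iron, while the fitted median was 0.1569 higher, and it was -1.3552 in fish numbered up to 40 and 1.9258 in males alone. The fish at the top of the homozygous iron range (fish number 79) was also at the top of that group for microglia genes, at 4.09, and without it the fitted medians were -0.2559 for interferon and -0.1935 for microglia genes. The 53 microglia and macrophage genes had a mean of 2.57 to 4.09 in homozygous iron and 2.89 to 4.34 in homozygous saline fish, and 14 of 53 were higher in the fit with a median of -0.0646. It was -0.617 in fish numbered up to 40 and 0.7503 in males alone, where 5 homozygous iron males meet 3 homozygous saline males from other home tanks. The scavenger receptor gene marco, a microglia and macrophage gene, had 4.08, 4.43 and 7.19 log2 CPM in homozygous iron and 3.79, 4.98 and 6.80 in homozygous saline fish, with a log2 fold change of 0.17 (SE 0.55, interval -0.94 to 1.29). Of the 32 interferon genes, 11 had intervals within 2-fold and 4 within 1.5-fold.

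Single neuronal genes had narrower intervals. Of 62 synapse genes 41 were higher after iron with a median of 0.0264, and 58 intervals lay within 1.5-fold. Of 39 glutamatergic neuron genes 22 were higher (median 0.0062), and of 33 GABA neuron genes 17 (median 0.0116). In fish numbered up to 40 the medians were 0.2068 for synapse, 0.2752 for glutamatergic and 0.2913 for GABA neuron genes, and in males alone they were -0.0027, -0.0763 and -0.0564. The immediate early genes, which neurons switch on when they fire, had a mean log2 CPM of 3.87 to 4.32 with a median of 3.99 in homozygous iron fish and 4.12 to 4.44 with a median of 4.20 in homozygous saline fish. By sex, the list ran from 3.87 to 3.95 in 5 homozygous iron males and from 4.12 to 4.24 in 3 homozygous saline males. In females it ran from 4.04 to 4.32 in 5 homozygous iron and from 4.12 to 4.44 in 7 homozygous saline fish. These levels are not adjusted for home tank, and the males of the 2 groups shared no tank. How many other lists part between so few males was not counted. Of the 42 immediate early genes, nr4a1 had the smallest p. Its log2 CPM was 2.25, 2.83 and 3.47 in homozygous iron and 2.67, 3.33 and 4.25 in homozygous saline fish, with a log2 fold change of -0.46 (SE 0.19, interval -0.85 to -0.07, unadjusted p = 0.0212, edgeR adjusted p = 1). The widely used activity marker egr1 had a log2 fold change of -0.10 (SE 0.13, interval -0.36 to 0.16) and fosb one of -0.25 (SE 0.24, interval -0.74 to 0.24).

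Most genes of energy metabolism and translation had intervals within 1.5-fold. Of 85 nuclear genes of oxidative phosphorylation, whose complexes hold iron-sulfur clusters and heme, 66 were higher after iron with a median of 0.0235, which was -0.0522 in fish numbered above 40, and 83 intervals lay within 1.5-fold. Of the 13 mitochondrially encoded genes 0 were higher, with a median of -0.0337 that was 0.0983 when homozygous libraries alone were fitted and -0.3823 in males alone. Their mean log2 CPM was 12.39 to 12.80 in homozygous iron and 12.10 to 13.17 in homozygous saline fish. The 80 cytosolic ribosomal protein genes had a mean of 7.62 to 8.08 in homozygous iron and 7.74 to 8.35 in homozygous saline fish. Of the 80, 1 was higher after iron, 0 had an unadjusted p under 0.05, and 79 intervals lay within 1.5-fold. The cell cycle gene plk1 had the smallest p of the proliferation list, with 0.00, 0.85 and 1.12 log2 CPM in homozygous iron and 0.26, 1.17 and 2.02 in homozygous saline fish, and a log2 fold change of -0.43 (SE 0.23, unadjusted p = 0.0631).

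Transcripts of photoreceptor, lens and pineal cells were high in part of the libraries of both groups. The mean log2 CPM of 23 photoreceptor, lens and pineal genes was 1.17 to 2.09 in 4 homozygous iron and 1.91 to 2.00 in 3 homozygous saline libraries, and -0.97 to -0.70 in the other 6 homozygous iron and -0.96 to -0.44 in the other 7 homozygous saline libraries. The fitted median of this list was 0.2118, with 15 of 23 higher, and it was -0.2237 without homozygous saline replicate 8 and 1.7997 in fish numbered up to 40. The part of such tissue in other values was not tested.

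Ranked by p, the top 30 genes are named although none passed. Each had an adjusted p of 1 by edgeR's test, 15 were higher and 15 lower after iron, and the ranges of the homozygous groups overlapped in all 30. The smallest p was that of tmem201, an inner nuclear membrane protein gene, with 3.91, 4.15 and 4.26 log2 CPM in homozygous iron and 4.13, 4.30 and 4.41 in homozygous saline fish and a log2 fold change of -0.20 (SE 0.05, unadjusted p = 0.000119). Next was gria4a, a subunit of AMPA glutamate receptors, with 5.98, 6.16 and 6.36 in homozygous iron and 5.71, 5.99 and 6.11 in homozygous saline fish and a log2 fold change of 0.24 (SE 0.06, unadjusted p = 0.000192). The groups overlapped in both genes. The palmitoyltransferase-family gene zdhhc11b followed, with a log2 fold change of 0.42 (SE 0.11, unadjusted p = 0.000832).

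Further genes of the ranking had fitted differences of varied size. The neuropeptide gene nmu had 0.72, 1.65 and 2.04 log2 CPM in homozygous iron and 1.05, 2.38 and 2.81 in homozygous saline fish, and a log2 fold change of -0.51 (SE 0.15, interval -0.81 to -0.22). The gene pof1b had 2.05, 2.28 and 2.76 in homozygous iron and 2.28, 2.97 and 3.48 in homozygous saline fish, and a log2 fold change of -0.54 (SE 0.15). The phospholipid-flippase gene atp8b4 was at 3.27, 3.77 and 4.20 in homozygous iron and 3.11, 3.46 and 3.54 in homozygous saline fish, with a log2 fold change of 0.41 (SE 0.12). The RNA helicase gene dhx36 had a log2 fold change of 0.15 (SE 0.04), the retinoic acid receptor gene rarg (ENSDARG00000054003) one of 0.84 (SE 0.26), rcn3 one of -0.70 (SE 0.23) and twist1b one of -0.61 (SE 0.20). Of the 30, 18 had a mean log2 CPM of at least 1, and their folds ran from 0.615 to 1.34. The other genes of the 30 were ENSDARG00000112767, qrfpr4, dph3, si:ch73-221f6.3, coil, cdc42l2, agl (ENSDARG00000100352), znf692, si:ch211-274p24.2, fhdc4, copz2, si:dkey-21c1.1, ube2d4, snupn, si:dkey-192l18.11, gnpnat1, zgc:173726, fgf6 (ENSDARG00000009351), exd1 and nek1, with log2 fold changes from -1.05 (si:ch211-274p24.2) to 0.78 (fhdc4). In the model with a mean for each group and sex, the estimates of females and males had the same sign in all 30. The 30 were picked by p over both sexes, so this is no test. Fitted in males alone, where the homozygous groups shared no home tank, some of these genes came near 0. There zdhhc11b was at -0.0024, snupn at 0.0005, znf692 at 0.0071 and nmu at -0.0481. In all homozygous fish they were at 0.42, -0.17, 0.56 and -0.51. Of the 30, 1 had an unadjusted p under 0.05 by edgeR in heterozygous fish, beside 808 of all 19668 genes. This was zdhhc11b, and its direction was opposite, lower after iron in heterozygous fish and higher after iron in homozygous fish.

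Whether iron acted differently in the mutant was tested as an interaction with genotype. No gene passed: 0 of 19668 (0%) by edgeR, with 553 at an unadjusted p under 0.05 and a smallest adjusted p of 0.322, and 0 by DESeq2 (606 unadjusted, smallest adjusted p 0.0985) and by limma voom (477 unadjusted). In the fit of all 40 libraries, iron against saline in heterozygous fish called 0 (0%) by edgeR, with 808 unadjusted. It called 0 by DESeq2 (896 unadjusted) and 0 by limma voom (786 unadjusted). Fitting the heterozygous libraries alone also called 0 genes, with 741 unadjusted by edgeR. The gene with the smallest interaction p was zdhhc11b, whose log2 fold change of iron over saline was 0.42 (SE 0.11) in homozygous and -0.36 in heterozygous fish (interaction p = 1.64e-05). Among the 63 iron and heme handling genes, 1 had an unadjusted interaction p under 0.05. This was bmp2 (ENSDARG00000013409), a BMP ligand gene, with 0.09 in homozygous and -0.36 in heterozygous fish (interaction p = 0.0422). For tfr1b the log2 fold change was -0.21 in homozygous and -0.48 in heterozygous fish, for fth1a -0.09 in homozygous and -0.11 in heterozygous fish, and for slc40a1 -0.01 in homozygous and -0.06 in heterozygous fish. Without heterozygous iron 5 and heterozygous saline 5, the interaction and the heterozygous comparison again called 0 genes, with 541 and 738 at an unadjusted p under 0.05 by edgeR. Females were 5 of 10 heterozygous iron and 2 of 10 heterozygous saline fish.

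No gene passed the test of a difference in the iron comparison between female and male homozygous fish. The interaction of iron with sex called 0 of 19668 genes (0%) by edgeR, with 642 at an unadjusted p under 0.05, 0 by DESeq2 (683 unadjusted) and 0 by limma voom (537 unadjusted). These groups hold 5 homozygous iron and 7 homozygous saline females, and 5 homozygous iron and 3 homozygous saline males. The males of the 2 groups shared no home tank, so their estimates rest on tank terms fitted from other fish. In males, iron and home tank can thus not be told apart from the homozygous fish alone. The median SE of the difference was 0.2133 on the log2 scale, against 0.1077 for the iron comparison of both sexes. Among the iron genes, the log2 fold change of fth1a was -0.03 in females and -0.28 in males (unadjusted p of the difference 0.0423), that of hmox1 -0.26 in females and 0.47 in males, and that of slc40a1 0.00 in females and -0.21 in males. The hmox1 level of homozygous iron males was 3.94 log2 CPM in fish number 79 and 2.18, 2.30, 2.63 and 2.63 in the other 4, against 2.201, 2.60 and 2.76 in homozygous saline males. Apart from fish number 79, the male levels overlapped.

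Fish number was associated with many of the iron genes. Of the 63 iron and heme handling genes, 27 were called for fish number, 10 higher and 17 lower at higher numbers, where 21.8% of all genes were called. Clock genes followed it closely, with 38 of 47 called. The transcription factor gene nfil3-5 had 4.75, 6.202 and 8.05 log2 CPM in homozygous iron and 4.57, 5.26 and 7.41 in homozygous saline fish. The median was higher after iron, the log2 change per 10 fish numbers was 0.38 (edgeR adjusted p = 5.86e-17), and with fish number in the model the iron effect was 0.16 (SE 0.13, interval -0.10 to 0.42). The clock repressor gene bhlhe41 had 6.56, 7.29 and 8.09 in homozygous iron and 6.60, 7.44 and 8.02 in homozygous saline fish, with -0.16 per 10 fish numbers and an iron effect of 0.07 (interval -0.05 to 0.19). Within fish numbered up to 40 (4 homozygous iron and 6 homozygous saline) and within fish numbered above 40 (6 and 4), the iron comparison again called 0 genes each, with 741 and 1224 at an unadjusted p under 0.05.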

How the data were processed

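Whole-brain polyA RNA of 40 zebrafish was sequenced, 10 in each of 4 groups. The authors deposited raw read counts per gene for each library. The tools named for the reads are featureCounts, STAR, UMI-tools and fastp, with build GRCz11, per the submitters' processing notes. Versions and settings: not given in the sources used here. Sample columns were matched to the labels by fish number, and gene symbols were found for 28988 of 32057 gene IDs (90.4%). Totals of the 20 homozygous libraries ran from 13100000 to 37600000 counts. Of 780 pairs of libraries 0 held identical counts, and every pair differed beyond sampling noise (chi-square over its degrees of freedom at least 6.6).

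For each gene, edgeR 4.0.16 (R 4.3.3) was run on the counts (filterByExpr, TMM factors, robust quasi-likelihood test, Benjamini-Hochberg adjustment over the 19668 genes that passed the filter, threshold 0.05). All 40 libraries were fitted with a mean for each group and terms for sex, home tank and a linear fish number (10 coefficients, 30 residual degrees of freedom). The sex interaction came from a model with a mean for each group and sex. Levels are log2 CPM with a prior count of 2, folds are iron over saline, and intervals are 95% from the fitted SE. Each library is 1 fish by its label, and p-values measure the spread between these fish. A genotype score for each library used the 50 genes that best separated the genotypes in the other libraries (limma 3.58.1).

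Alternatives were DESeq2 1.42.0, limma voom, other scaling and filters, other covariates, 1 surrogate variable (sva 3.50.0), subsets of fish, and each homozygous library left out in turn. Scripts were tested on simulated data. The genes named are naglu, the iron and heme handling genes, and the 30 genes of smallest p among all genes. The other named genes come from the gene lists or were picked from earlier results. The members and lists were chosen with earlier results of these data known.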

Additional observations from a re-analysis of the deposited data

Results flagged for a closer look

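Of 274 sets of 10 homozygous values examined, 13 had a highest or lowest fish far from the others (by Dixon's ratio of gap to range). That count is close to the 1 in 20 that chance gives. Of the 13, 3 homozygous iron values belonged to fish number 79, at 2.22 log2 CPM for steap3, 6.62 for hephl1a and 3.94 for hmox1, each the highest of its group. Fish number 15 was highest in homozygous iron for pof1b at 2.76, and fish number 14 lowest for gnpnat1 at 1.44. In homozygous saline fish, fish number 2 was highest for meltf at 2.41, and lowest for the mean level of iron-sulfur cluster assembly genes at 3.88 and of nuclear oxidative phosphorylation genes at 6.19. Fish number 27 was highest in homozygous saline for pgrmc1 at 5.93, for the mean level of neutrophil genes at 4.11 and for that of unfolded protein response genes at 5.13. Fish number 34 was lowest in homozygous saline for bmper at -0.56, and fish number 52 highest for the mean level of GABA neuron genes at 6.05.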

How the results depend on the processing

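The count of 0 genes for iron in homozygous brains was also 0 in all 40 alternatives run, with 261 (without homozygous saline replicate 2) to 1224 genes (fish numbers above 40 only) at an unadjusted p under 0.05 and a smallest adjusted p of 0.395 (without homozygous iron replicate 1). Fitting the homozygous libraries alone gave 704 such genes, no covariates 667, and no filter on low counts 723 of 29113. The interaction with genotype was 0 in 39 alternatives (336 to 1682 unadjusted, smallest adjusted p 0.0985 with DESeq2), the heterozygous comparison 0 in 20 (587 to 1235, 0.325 without covariates) and the interaction with sex 0 in 35 (500 to 997, 0.0798 without homozygous saline replicate 4). Without heterozygous iron 5 and heterozygous saline 5, a choice made after seeing the data, the counts were 0 with 318, 541 and 738 genes unadjusted for the homozygous, interaction and heterozygous comparisons. No named gene passed in any of these. Fitted signs turned in 136 gene values with a homozygous library left out and in 190 under the other alternatives, and 24 list medians moved by more than the spread between fish. Genes under 1 log2 CPM are limited by depth. No paired analysis was possible because the replicate numbers were given in accession order and pair no fish.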
